A study of Homo sapiens with 16 samples.

Results

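The genes described are 10 integrin subunits: the α subunits ITGA1, ITGA2, ITGA3, ITGA5, ITGA6, ITGA8 and ITGAV and the β subunits ITGB1, ITGB5 and ITGB8. They were chosen by name, with ITGA3 as the leading gene, from 26 integrin subunit genes of the human genome. These genes and the other lists used below were chosen with earlier results of these data known. Counts called among them may partly follow from that choice. All 10 were listed in each of the 3 bulk RNA-seq tables, which held 20121, 27650 and 21093 genes and 28261 different genes together, and in the single-cell matrices of 36601 genes.

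The organoids were kidney organoids differentiated from human embryonic stem cells; the bulk labels name the established line UM77-2, and the single-cell labels name no line. The 13 bulk libraries came from isolated spheroids. Set 1 held 1 library each at D21, D25 and D29 of culture, and set 2 held 2 libraries (Org1 and Org2) at each of the same days, with medium renewed daily from day 17. In the TNFα experiment, 1 library each was made from spheroids given 5 ng/ml TNFα, a proinflammatory cytokine, or vehicle control (VC) for 24 h or 48 h; all were collected on day 25, and treatment was renewed once in the 48 h wells. The 2 single-cell libraries came from whole wells collected on day 24, after 24 h with TNFα or as the control (labelled Ctrl, and called VC here); another single-cell sample, a day 25 control, was not analysed here. The bulk organoids thus share 1 line, and no label ties libraries to separate differentiations, so that p-values measure only the spread between these libraries, which may be technical. The fits estimate the spread of a gene partly from other genes. In bulk RNA, fewer cells of a type and less RNA per cell cannot be told apart.

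Integrins are cell surface receptors made of 1 α and 1 β subunit that tie the cytoskeleton to the extracellular matrix. ITGA3 and ITGA6 give the laminin-binding receptors, ITGA1 and ITGA2 the collagen-binding receptors, and ITGA5, ITGA8 and ITGAV receptors for ligands such as fibronectin and nephronectin; ITGB1 is the shared partner of most of these α subunits, while ITGB5 and ITGB8 pair with ITGAV. In the kidney, the receptor of ITGA3 and ITGB1 anchors podocytes, the filtering epithelium of the glomerulus, to the laminin of the basement membrane, and ITGA8 with its ligand nephronectin takes part in the outgrowth of the ureteric bud.

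Bulk depth ranged from 19073609 to 59246286 reads per library. The 2 D29 libraries of set 2 stood apart from each other: their counts differed by 17.4 times the sampling variance per gene, against 5.01 at D21 and 4.90 at D25. Org1 of D29 was nearer to both D25 libraries (11.1 and 12.5) than to Org2 of D29, and the summed level of 10 podocyte markers was 8404 CPM (read counts scaled to the total of the library) in Org1 and 4012 in Org2. Leukocyte markers were near 0 (2 of the list listed in set 2, with a summed level of at most 0.506 CPM, and none in the TNFα table). Set 1, set 2 and the TNFα table were normalised separately, so that levels are compared only within a table.

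Scaled to the union of annotated exons, ITGB1 had the highest median level of the 10 genes in every table. In set 2 this median was 26.0 RPKM (CPM per kilobase of exon), with a range of 24.5 to 28.3 over the 6 libraries. ITGA3 followed at 23.8 RPKM, with a range of 12.8 to 25.8, and ITGA6 at 19.2, with a range of 9.87 to 29.3. These 3 ranges, taken over all days, overlapped, and the order depended on the day. At D21, ITGA6 (28.3 and 29.3 RPKM) was above ITGB1 (26.1 and 25.7 RPKM) in both libraries of set 2. This order rests on the scaling, as the exon union is 6679 bases for ITGA6 and 14561 for ITGB1. In CPM, ITGB1 was higher there, at 380 and 374 against 189 and 196. In the D21 library of set 1, ITGB1 was also higher in RPKM (30.2, against 21.8 for ITGA6). Among these 3 genes, ITGB1 was highest, then ITGA3, then ITGA6 in every D25 and D29 library of set 2. In Org2 of D29, ITGA6 (9.87 RPKM) was also below ITGA5 (11.9), ITGA8 (11.6), ITGB5 (11.4) and ITGAV (10.0). In the D25 library of set 1, ITGA6 (13.7) stood just above ITGA3 (13.4). ITGA2 had the lowest median of the 10 genes in set 2, at 4.12 RPKM (2.84 to 5.52). Of the 16 other integrin subunits, 13 were listed in set 2, and ITGA9 was highest among them at 9.22 RPKM, whereas ITGB2, the β subunit of leukocyte integrins, had 0.104 RPKM.

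The promoters are shown for the 4 genes that changed in the same direction with culture time and with TNFα, so that the windows of genes that rose (ITGA1, ITGA5, ITGAV) can be set beside that of ITGA6, which fell. RefSeq promoter windows (GRCh38.p14) were at hand for 9 of the 10 genes, all but ITGA3. Each line holds the 250 bases before the annotated start, written 5′ to 3′ along the gene, and capitals mark a GC box, GGGCGG on either strand.
ITGA1, chr5:52787666-52787915, plus strand: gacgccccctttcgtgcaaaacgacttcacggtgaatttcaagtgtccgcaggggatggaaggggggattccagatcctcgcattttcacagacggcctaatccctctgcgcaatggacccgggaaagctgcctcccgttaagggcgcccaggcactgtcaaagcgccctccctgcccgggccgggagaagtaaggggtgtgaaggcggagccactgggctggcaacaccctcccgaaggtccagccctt
ITGA5, chr12:54419267-54419516, minus strand: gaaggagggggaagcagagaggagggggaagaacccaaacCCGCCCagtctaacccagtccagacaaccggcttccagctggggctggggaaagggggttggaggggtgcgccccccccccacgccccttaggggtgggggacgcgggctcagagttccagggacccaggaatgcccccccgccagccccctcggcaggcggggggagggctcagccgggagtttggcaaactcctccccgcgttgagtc
ITGAV, chr2:186589806-186590055, plus strand: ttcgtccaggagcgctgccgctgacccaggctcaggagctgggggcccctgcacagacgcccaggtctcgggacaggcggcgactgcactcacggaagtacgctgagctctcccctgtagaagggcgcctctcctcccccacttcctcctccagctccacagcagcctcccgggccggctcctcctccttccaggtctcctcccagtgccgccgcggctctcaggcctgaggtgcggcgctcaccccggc
ITGA6, chr2:172427336-172427585, plus strand: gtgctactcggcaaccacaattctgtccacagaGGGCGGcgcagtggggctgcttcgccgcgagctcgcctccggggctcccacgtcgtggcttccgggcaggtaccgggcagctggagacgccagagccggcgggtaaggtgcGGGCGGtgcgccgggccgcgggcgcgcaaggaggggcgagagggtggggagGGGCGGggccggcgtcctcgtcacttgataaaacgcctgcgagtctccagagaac
The ITGA6 window held 3 GC boxes and that of ITGA5 held 1, while the windows of ITGA1 and ITGAV held none. ITGA6 and ITGAV each have another listed window, not shown, and neither of these held a GC box. Of the genes not shown, ITGA2, which rose by D29, held 4. ITGB8, higher with TNFα, held 2, and ITGA8, lower with TNFα, held 4. The windows of ITGB1 held 3 and 0, and those of ITGB5 held 2, 0 and 3. Of all 35116 promoters, 42.6% had at least 1. Only a restricted set of forms of the NF-κB motif was searched, on both strands. These forms were in 1.93% of all promoters and in no window of the 9 genes. Other forms of the motif were not searched. The ITGA1 window holds the letters GGGGGATTCC, which fit the looser form GGGRNNYYCC (R is A or G, Y is C or T, N is any base). Other windows may hold such forms as well, and their share over all promoters was not counted. The result says only that the searched letters were not in these windows.

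The comparison of days asked how the transcripts change with time in culture. Between D21 and D29 in set 2, 5 of the 10 integrin genes passed the threshold of an adjusted p of 0.05 (limma, Benjamini-Hochberg over 27650 genes), 4 of them higher and 1 lower. Of all genes tested, 18.4% passed (10.0% higher and 8.33% lower), and of the 18572 genes with a mean log2(CPM + 1) above 1, a group that holds all 10 integrins, 27.8% did. ITGA1, ITGA2, ITGA5 and ITGAV rose and ITGA6 fell. The median difference of the 10 genes was 0.04 on the log2 scale, against -0.02 over all genes.

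Of the laminin receptors, ITGA6 had 189 and 196 CPM at D21, 134 and 122 at D25 and 90.3 and 65.9 at D29. The days did not overlap, each lying below the one before. The fall from D21 to D29 was -1.31 ± 0.13 (log2, SE; adjusted p = 0.000578), and ITGA6 was also called between D21 and D25 (-0.58 ± 0.13, adjusted p = 0.0485) and between D25 and D29 (-0.73 ± 0.13, adjusted p = 0.0428). In set 1, with 1 library a day, it stood at 146, 91.5 and 79.5 CPM. ITGA3 had 224 and 253 CPM at D21, 242 and 252 at D25 and 209 and 126 at D29. Both D29 libraries were the lowest of the 6, but they lay far apart. The difference from D21 was -0.55 ± 0.20 and was not called (adjusted p = 0.0996). Without Org1 of D29 it was -0.92 and called (adjusted p = 0.000358), and without Org2 of D29 it was -0.19 (adjusted p = 0.264). In set 1, ITGA3 had 154, 132 and 117 CPM.

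The collagen receptor subunit ITGA1 had 66.0 and 59.4 CPM at D21, 125 and 101 at D25 and 128 and 109 at D29. D21 was below both later days, which overlapped. The difference was 0.84 ± 0.12 by D25 (adjusted p = 0.00936) and 0.91 ± 0.12 by D29 (adjusted p = 0.00178). ITGA2 had 25.6 and 22.4 CPM at D21, 36.8 and 28.4 at D25 and 43.6 and 42.9 at D29, with no overlap of days. It was called only over the whole interval (0.83 ± 0.13, adjusted p = 0.00325). In set 1, ITGA1 went from 97.7 to 163 CPM and ITGA2 from 32.6 to 57.6 CPM between D21 and D29.

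ITGA5, the fibronectin receptor subunit, had 38.1 and 41.0 CPM at D21, 54.7 and 64.2 at D25 and 65.7 and 87.9 at D29. The days again did not overlap. The rise from D21 to D29 was 0.93 ± 0.14 (adjusted p = 0.00301). ITGAV, the α subunit of receptors that also activate latent TGFβ, had 119 and 107 CPM at D21, 164 and 153 at D25 and 190 and 193 at D29. Its rise was 0.49 ± 0.08 by D25 (adjusted p = 0.0130) and 0.76 ± 0.08 by D29 (adjusted p = 0.000549). ITGA8 ranged only from 75.5 to 90.5 CPM over the 6 libraries, and its difference at D29 was -0.08 (95% interval -0.27 to 0.11). In set 1, from D21 to D29, ITGA5 went from 48.9 to 79.9, ITGAV from 159 to 193 and ITGA8 from 85.4 to 92.1 CPM.

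The 3 β subunits were not called at any step. ITGB1 stayed between 357 and 413 CPM, with a D29 difference of 0.03 (interval -0.18 to 0.23), ITGB5 between 74.2 and 89.3 CPM, at 0.06 (-0.14 to 0.26), and ITGB8 between 82.4 and 112 CPM, at -0.16 (-0.46 to 0.14). Without Org1 of D29, the ITGB8 difference was -0.36 and was called (adjusted p = 0.0408).

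**Figure D1:**
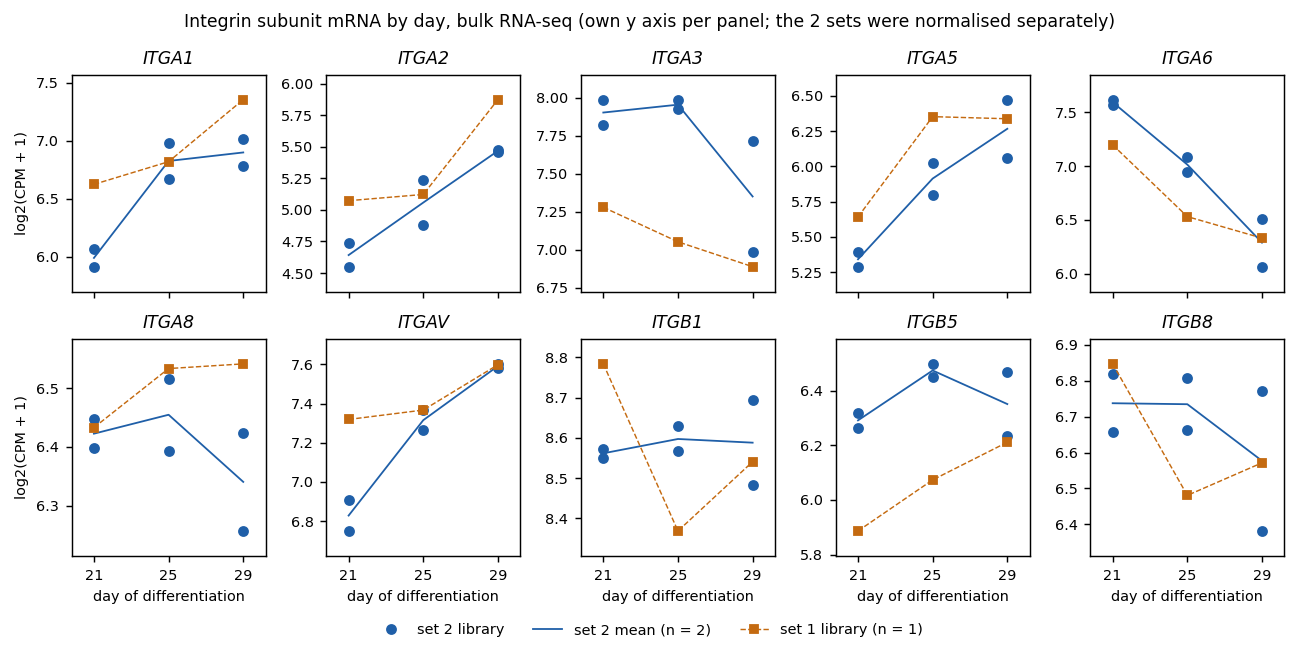
Level of each integrin gene, as log2(CPM + 1), against day of differentiation; blue circles are the 2 set 2 libraries per day, joined at their mean, and orange squares the single set 1 library per day, with the 2 sets normalised separately. ITGA6 falls and ITGA1, ITGA2, ITGA5 and ITGAV rise in both sets, while the 2 D29 libraries of set 2 lie apart for ITGA3, at 7.71 and 6.98.

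By shorter intervals, 3 of 10 were called from D21 to D25 (ITGA1, ITGA6 and ITGAV), where 5.37% of all genes (3.39% higher and 1.99% lower) and 10.2% of those with a mean above 1 were. From D25 to D29, 1 of 10 was called (ITGA6), where 2.08% of all genes (1.25% higher and 0.825% lower) and 6.04% of those with a mean above 1 were. These counts rested on single libraries: from D21 to D25 they were 0 in limma without Org2 of D21 and 0 without Org1 of D25, with 4 genes at an unadjusted p under 0.05 in each case, 1 without Org2 of D25 and 2 without Org1 of D21, and 4 without either D29 library. From D25 to D29, the count was 0 in limma without any single library other than Org1 of D29, with unadjusted p-values under 0.05 in 2 to 5 of the 10 genes, and 3 without that library. The D21 to D29 count was 7 without Org1 of D29 and 5 without any of the other 5 libraries, and there the same 5 genes were called each time.

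Cell type markers moved over the same interval. Of 8 stromal markers 7 were called higher and none lower by D29, with summed levels of 4817 and 4219 CPM at D21 and 14151 and 17672 CPM at D29. Of 10 podocyte markers 6 were called lower, with sums of 11881 and 12458 CPM at D21 and 8404 and 4012 CPM at D29, and of 11 listed proximal tubule markers 8 were called lower, with sums of 1096 and 915 CPM at D21 and 563 and 433 CPM at D29. Other lists were also higher by D29 in set 2. Of 10 neuronal markers 9 were called higher (median 1.17, sums of 553 and 589 CPM at D21 and 998 and 1479 CPM at D29). So were 9 of 12 muscle markers (median 1.22, sums of 79.4 and 113 CPM at D21 and 251 and 215 CPM at D29). Of 8 mural markers 6 were called higher (median 0.83, sums of 867 and 922 CPM at D21 and 1108 and 1236 CPM at D29). None was called lower in these 3 lists. From D21 to D25, the muscle median was -0.65. In set 1, from D21 to D29, the neuronal sum fell from 1521 to 1293 CPM. The muscle sum rose there from 84.9 to 367 CPM and the mural sum from 722 to 1179 CPM. None of these listed markers was at 0 reads. The part of these shifts in the integrin results was not tested.

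Between D21 and D29, 18.4% of all genes were called, and 27.8% of those with a mean log2(CPM + 1) above 1. The list counts below were not tested against these shares. Of the other genes of the pathway, the 31 matrix ligands had 14 called higher and 7 lower over this interval, with a median of 0.12. POSTN (2.51), TNC (2.41) and FBN1 (2.31) had the largest called differences. FN1, encoding fibronectin and so a ligand of ITGA5, rose by 2.11 ± 0.15 (adjusted p = 0.000148), while LAMA5, the laminin chain of the mature glomerular basement membrane, fell by 0.83 ± 0.12 (adjusted p = 0.00230) and NPNT, encoding the ITGA8 ligand nephronectin, fell by 1.19 ± 0.21 (adjusted p = 0.00671). TGFB1 (0.48) and LTBP1 (0.82), which encode the latent complex that ITGAV receptors bind, were called higher. Of the 13 other integrin subunits listed, 5 were called higher and 1 lower, with a median of 0.19; the largest were ITGA11 (2.02), ITGA9 (1.18) and ITGB4 (1.16). The 23 adaptors of the integrin tails had 6 higher and 1 lower and a median of 0.06, led by ACTN1 (1.4), TNS1 (0.49) and RSU1 (0.48). The 9 lateral membrane partners had 4 higher and 2 lower and a median of 0.27, led by CAV1 (0.82), CD47 (0.51) and CD9 (0.40); CD151, the tetraspanin that binds ITGA3, was called lower (-0.29, adjusted p = 0.0458).

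The TNFα comparison asked how organoids respond to the cytokine. Of 10 genes known to respond to TNFα, 9 were listed and all 9 were called higher, with a median of 3.29 on the log2 scale, led by ICAM1 (4.25), VCAM1 (4.14) and CCL2 (4.07). In the fit, the 24 h and 48 h libraries stand in for replicates, with a term for time and 1 residual degree of freedom. The residual of a gene is thus the difference of its effect between the times, not a spread of replicates. limma draws it toward the spread of genes of similar level. The SE and adjusted p given below rest mostly on this shared spread. Of the 10 integrin genes 8 were called, 4 higher and 4 lower, where 19.3% of all 21093 genes (8.42% higher and 10.8% lower; DESeq2 called 1206 genes higher and 978 lower) and 23.6% of the 16905 genes with a mean log2(CPM + 1) above 1 were called. ITGA3 had the largest difference, downward, and ITGAV the largest upward. These are RNA levels, and protein was not measured here. The paper lists ITGA3 among the proteins that were higher in organoid lysates after 48 h of TNFα. By immunofluorescence, the paper also places this ITGA3 protein in podocytes, marked by SYNPO or PODXL. Without the time term 5 were called, and ITGA1, ITGA8 and ITGB8 were not (adjusted p = 0.0805, 0.0824 and 0.166).

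ITGA3 had 211 CPM with VC at 24 h and 212 at 48 h, against 128 and 111 CPM with TNFα. Both TNFα libraries lay far below both VC libraries. The difference was -0.72 at 24 h and -0.92 at 48 h, and -0.82 ± 0.07 in the fit (limma, adjusted p = 5.31e-08). ITGA6, the other laminin receptor subunit, had 143 and 127 CPM with VC and 93.3 and 101 with TNFα, with no overlap (-0.47 ± 0.07, adjusted p = 8.93e-05). All 10 podocyte markers were called lower as well, with a median of -0.83, and their summed level went from 7439 to 4511 CPM at 24 h and from 6935 to 3360 CPM at 48 h. All 11 listed proximal tubule markers were called lower, with a median of -0.99 and sums of 899 and 897 CPM with VC and 473 and 534 CPM with TNFα. Of the other lists, 6 of 8 mural markers were called higher and 1 lower (median 0.45, sums of 696 and 741 CPM with VC and 834 and 847 CPM with TNFα), and 6 of 7 Schwann or glial markers higher and 1 lower (median 0.51), although the sum of that list was 193 and 199 CPM with VC and 136 and 193 CPM with TNFα. The stromal list had 3 higher and 2 lower of 8 (median 0.21), with sums of 6565 and 8078 CPM with VC and 8206 and 8565 CPM with TNFα. Of endothelial markers 5 of 8 were called lower (median -0.38) and of neural progenitor markers 4 of 6 (median -0.37), with none higher. None of these markers was at 0 reads, and the part of these shifts in the integrin results, falls and rises, was not tested.

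ITGAV had 114 and 106 CPM with VC and 164 and 158 with TNFα. It was higher at both times without overlap (0.55 ± 0.06, adjusted p = 3.84e-06). ITGA5 had 49.2 and 54.7 CPM with VC and 71.0 and 69.5 with TNFα (0.43 ± 0.07, adjusted p = 0.000238), and ITGA1 had 89.2 and 86.6 CPM with VC and 109 and 105 with TNFα (0.28 ± 0.06, adjusted p = 0.00374). ITGB8, which pairs with ITGAV, had 47.3 and 37.1 CPM with VC and 60.4 and 51.1 with TNFα (0.40 ± 0.07, adjusted p = 0.000518). Of these 4 genes, each was higher in both TNFα libraries than in both VC libraries.

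In the other direction, ITGA8 had 81.6 and 88.6 CPM with VC and 62.8 and 70.7 with TNFα (-0.35 ± 0.07, adjusted p = 0.000850). ITGB5, another partner of ITGAV, had 86.9 and 92.6 CPM with VC and 69.4 and 69.8 with TNFα (-0.36 ± 0.07, limma, adjusted p = 0.000603). ITGB8 and ITGB5 were thus called in opposite directions. ITGB1 had 501 and 477 CPM with VC and 484 and 478 with TNFα, a difference of -0.02 (95% interval -0.15 to 0.11). ITGA2 had 23.0 and 29.0 CPM with VC and 24.3 and 32.4 with TNFα; its groups overlapped and the difference was 0.12 (-0.05 to 0.29).

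**Figure D2:**
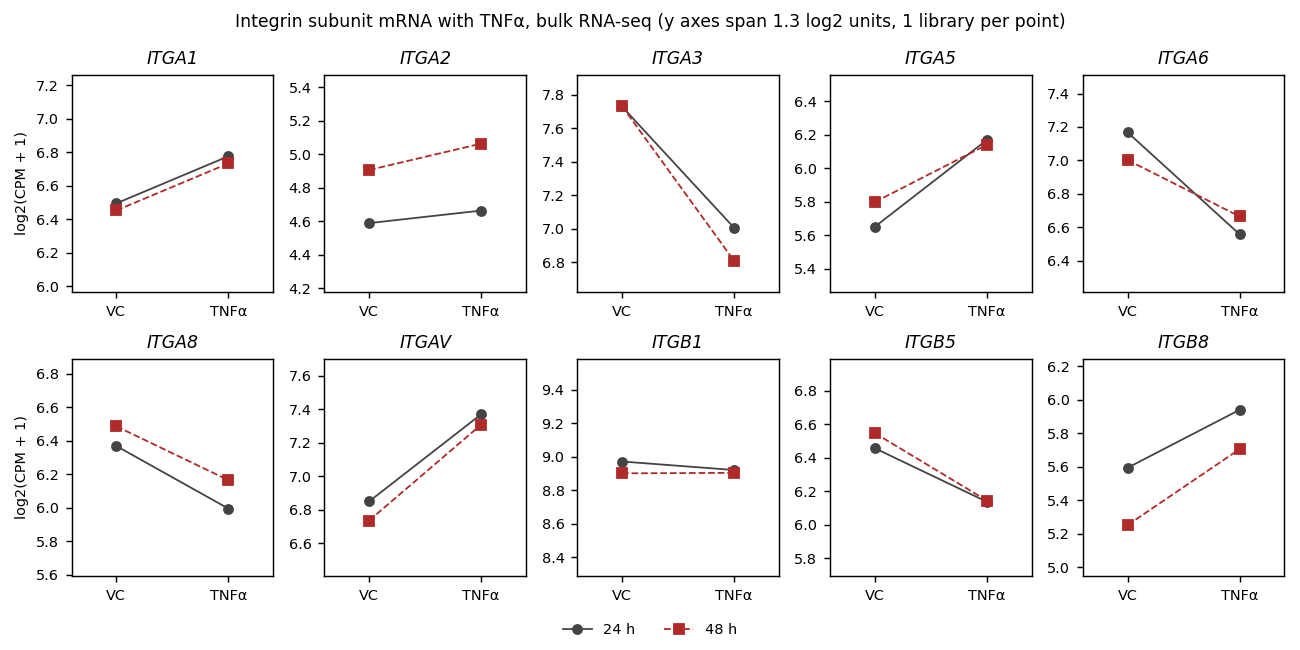
Level of each integrin gene, as log2(CPM + 1), in the 4 libraries of the TNFα experiment; lines join VC and TNFα at 24 h (circles) and at 48 h (squares), with 1 library per point and y axes of equal span. ITGA3 drops from 7.73 to 7.01 at 24 h and from 7.73 to 6.81 at 48 h, the steepest lines, and ITGB1 is level.

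**Figure D3:**
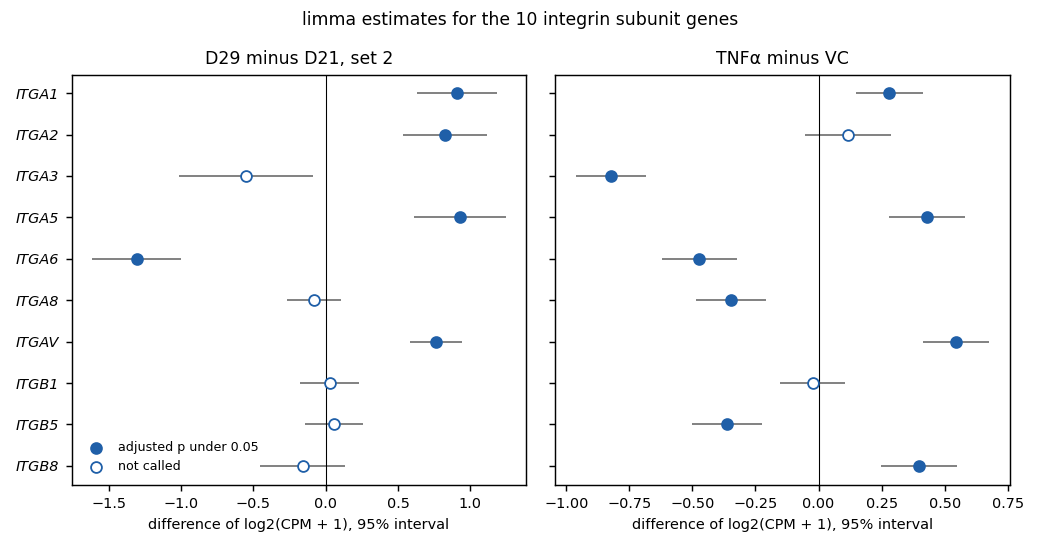
limma differences of log2(CPM + 1) with 95% intervals for D29 minus D21 in set 2 and for TNFα minus VC, with called genes as filled circles. ITGA1, ITGA5 and ITGAV are called higher and ITGA6 lower in both panels, and ITGA3 is called lower (-0.82) only in the TNFα panel, a contrast between panels that was not tested.

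With TNFα, 19.3% of all genes were called, and 23.6% of those with a mean log2(CPM + 1) above 1. The list counts below were not tested against these shares. The 31 matrix ligands had 14 called higher and 7 lower with TNFα and a median of 0.13. Among their largest called differences were VTN (-1.70) and TNC (0.89). FN1 (0.63), LTBP1 (0.55), TGFB1 (0.32) and LAMA5 (0.24) were called higher and NPNT lower (-0.52). Of 12 other integrin subunits listed, 3 were called higher and 1 lower, with a median of 0.02. ITGB6, a further partner of ITGAV, had the largest difference (1.07 ± 0.09, adjusted p = 1.08e-07), followed by ITGA4 (0.52) and ITGB3 (-0.49). The 23 adaptors had 3 called in each direction and a median of -0.03, led by LIMS2 (1.5), TNS2 (-0.81) and ACTN1 (0.41). The 9 lateral partners had 3 higher and 2 lower and a median of 0.01, led by CAV1 (1.3), CD47 (0.59) and CD82 (0.38), with CD151 lower (-0.23).

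The single-cell libraries asked which cells carry the transcripts. The VC library held 12494 cell barcodes, of which 11906 had over 500 genes, with a median of 6358.5 unique molecular identifiers (UMIs, 1 per captured transcript) per cell. The TNFα library held 23160 barcodes, all over 500 genes, with a median of 2599 UMIs. The libraries shared 74 barcodes, and their depths differed as stated. Cells were clustered without the integrin genes and named by marker lists. The 9 named classes were podocyte-like (10 and 9 of 10 markers raised in its 2 clusters), proximal tubule-like (8 of 12), stromal-like (7 of 8), proliferating-like (9 of 9), coelomic epithelium-like (3 of 6, led by AMHR2, LHX9 and STAR), muscle-like (10 of 12 in each of 2 clusters), Schwann or glial-like (7 of 7), neural progenitor-like (5 of 8) and neuronal-like (10 of 10 in each of 2 clusters). For the coelomic epithelium-like class, 3 raised markers were the minimum for a name, and the genes given as leading it are not on its marker list. This name is therefore tentative wherever it is used. Clusters with 1395 VC and 2517 TNFα cells stayed unnamed, among them one led by endothelial genes such as CDH5 in which fewer than 3 endothelial markers passed. Of the muscle-like cells, 1 cluster held 145 of 300 in the VC library and 1457 of 1865 in the TNFα library, so that different clusters hold most of that class. With 1 library per condition no test was possible; intervals are exact 95% Poisson intervals of a class's UMIs in CPM and cover counting error only.

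In the VC library, ITGA3 was highest in podocyte-like cells among the named classes, at 128 CPM (122 to 134, from 1801 UMIs). Coelomic epithelium-like cells followed at 50.6 CPM (45.4 to 56.3) and stromal-like cells at 17.3 (15.2 to 19.6), and Schwann or glial-like cells were lowest at 3.0 (1.99 to 4.33). The intervals of stromal-like, muscle-like, neuronal-like, proximal tubule-like and proliferating-like cells overlapped from each to the next, between 17.3 and 9.91 CPM. Podocyte-like cells held 60.1% of the ITGA3 UMIs with 14% of all UMIs. Their 2 clusters had 138 and 112 CPM. The other laminin receptor subunit, ITGA6, was spread over more classes: Schwann or glial-like (65.2), muscle-like (58.0), proximal tubule-like (55.3) and podocyte-like cells (46.6) led, and the first 3 overlapped from each to the next. Stromal-like cells were lowest at 5.08 CPM.

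ITGA8 was highest in stromal-like cells, at 134 CPM (128 to 140), followed by proliferating-like (56.0) and coelomic epithelium-like cells (26.1), and stromal-like cells held 59.3% of its UMIs with 14.1% of all UMIs. ITGA1 (70.0), ITGA5 (35.6) and ITGAV (56.9) were also highest in stromal-like cells among the named classes. The unnamed clusters are left out of these rankings. They held 15.6% of the ITGA5 UMIs with 7.92% of all UMIs. ITGA5 was lowest in podocyte-like cells, at 2.69 CPM (1.91 to 3.70). ITGAV came next in neural progenitor-like (45.9) and podocyte-like cells (45.5), which overlapped. ITGA2 led in proximal tubule-like (23.2) and neural progenitor-like cells (21.9), which overlapped, and every other class had at most 4.50 CPM.

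ITGB1 varied least, from 400 CPM in podocyte-like to 169 in muscle-like cells, a 2.36-fold range, where ITGA3 spanned 42.6-fold. ITGB5 was highest in podocyte-like (31.2) and Schwann or glial-like cells (25.8), which overlapped, and lowest in neuronal-like cells (2.43). ITGB8 was highest in podocyte-like (35.6) and then proximal tubule-like cells (27.6), with Schwann or glial-like cells lowest at 4.71 CPM. Among the named VC classes, podocyte-like cells thus led for ITGA3 and all 3 β subunits, ITGB5 with the overlap just given. Stromal-like cells led for ITGA1, ITGA5, ITGA8 and ITGAV. In the TNFα library the leading class differed for 2 of the 10 genes, with overlapping counting intervals. ITGB5 was highest in Schwann or glial-like cells (20 CPM), against 19.1 in coelomic epithelium-like and 17.4 in podocyte-like cells. ITGB8 was highest in proximal tubule-like cells (43.1 CPM, against 40.1 in podocyte-like cells). Without alignment of the libraries, podocyte-like cells led for ITGB8 in the TNFα library as well (40.2 CPM, against 39.0 in proximal tubule-like cells). The leading class of each of the 10 genes in the VC library was the same at a finer clustering, without alignment of the libraries, with cells over 1000 genes and without the cells of the highest doublet scores.

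The ligands had their own order. In the VC library, NPNT (299 CPM), LAMA5 (158 CPM) and CD151 (469 CPM) were highest in podocyte-like cells among the named classes, FN1 in stromal-like cells (162 CPM) and then Schwann or glial-like cells (124 CPM), and TGFB1 in podocyte-like (45.2 CPM) and stromal-like cells (37.3 CPM). LTBP1 was highest in coelomic epithelium-like cells (86.0 CPM).

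**Figure D4:**
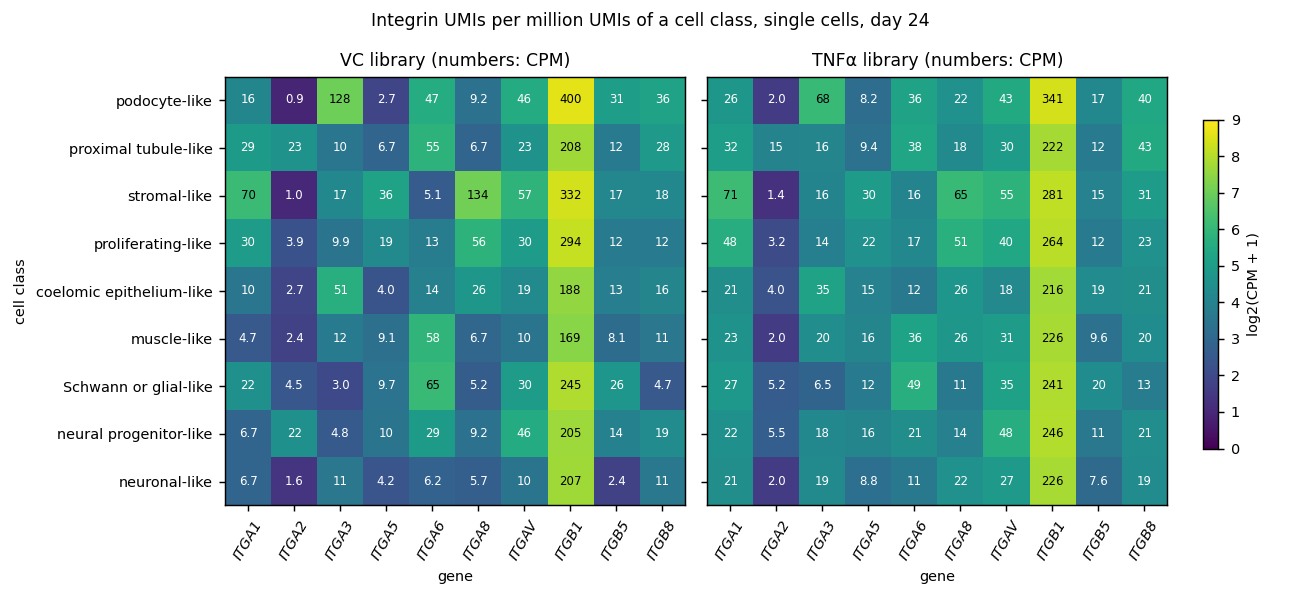
CPM of UMIs (numbers in the cells; colour is log2(CPM + 1)) of each integrin gene in the 9 named cell classes of the VC library and the TNFα library. ITGA3 stands out in podocyte-like cells (128 and 67.7 CPM) and ITGA8 in stromal-like cells (134 and 65.5 CPM), and the highest class exceeds the lowest less in the TNFα library for both (10.4-fold against 42.6-fold for ITGA3, 5.72-fold against 25.6-fold for ITGA8).

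By pattern over the 9 named classes of the VC library, the 3 genes most like ITGA3 among 5481 with at least 50 CPM in a class were MAGI2 (Pearson r = 0.973), VGLL4 (0.960) and BST2 (0.941) on log2(CPM + 10), with r = 0.934, 0.967 and 0.910 over the classes of the TNFα library. MAGI2 encodes a scaffold protein of the podocyte slit diaphragm. For ITGA8 they were CARMN (0.990), HIC1 (0.986) and IGF1 (0.983), and for ITGA5 TAGLN (0.97), COL5A1 (0.958) and GLIPR1 (0.956). For ITGB8 they were PPCS, ZDHHC4 and NINJ1 (0.98 to 0.96), for ITGAV SSR3, MLEC and PDIA6 (0.963 to 0.936), for ITGB1 DLC1, ARHGEF40 and SEC61B (0.953 to 0.927), for ITGA2 SSX2IP, MAL and ATP5PD (0.943 to 0.924), for ITGA6 PSMB4, APRT and ATP5MC2 (0.922 to 0.862), for ITGB5 PACSIN3, TCF7L1 and RAB13 (0.910 to 0.875), and for ITGA1 CRTAP, TRIM27 and SULT1C4 (0.881 to 0.880). Over the classes of the TNFα library the r was lower for every gene named here as alike, except VGLL4 with ITGA3. The lowest was 0.412, for TCF7L1 with ITGB5. CRTAP with ITGA1 had 0.561, PSMB4 with ITGA6 0.574 and SEC61B with ITGB1 0.582. The alike genes were picked by their r in the VC library, a choice that by itself favours a lower r in the other library. These are descriptions over 9 points of 1 library at a time that share its depth and free RNA. Among the integrin genes themselves, ITGA5 and ITGA8 were the most alike pair in the VC library (r = 0.812) and ITGA6 and ITGA8 the least (r = -0.674). In the TNFα library the most alike pair was ITGA1 and ITGA8 (r = 0.817), and the r of ITGAV and ITGB5 was -0.028 there, against 0.738 in the VC library.

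Between the 2 single-cell libraries, ITGA3 in podocyte-like cells went from 128 CPM with VC to 67.7 with TNFα, a ratio of 0.530 (0.493 to 0.570, exact interval, counting error only). Both podocyte-like clusters showed it, at 0.542 and 0.474. Podocyte-like cells made up 11.6% of the VC and 20.1% of the TNFα cells. Without alignment of the libraries the ratio was 0.712, but over other cells: 14564 TNFα cells (62.9%) then stayed unnamed, and the class held 1356 TNFα cells in place of 4648. Among all cells the ratio was 0.911 (0.863 to 0.961). ITGA3 was also lower in coelomic epithelium-like cells (0.699, 0.547 to 0.885), did not differ beyond counting error in stromal-like cells (0.910, 0.761 to 1.09), and was higher in the other 6 classes, from 1.4 in proliferating-like to 3.64 in neural progenitor-like cells, all at no more than 20.2 CPM. In podocyte-like cells, 4 of the 10 integrin genes were at least 1.5-fold higher, where 19.8% of 18094 genes were, and 2 (ITGA3 and ITGB5) at least 1.5-fold lower, where 10.7% were. ITGB5 went from 31.2 to 17.4 CPM (0.557, 0.481 to 0.644), while ITGAV stayed at 45.5 and 43.4 CPM (0.953, 0.858 to 1.06). The 4 higher genes were ITGA1 (1.60), ITGA2 (2.20), ITGA5 (3.06) and ITGA8 (2.42), all of which had at most 16.5 CPM with VC.

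In stromal-like cells, ITGA8 went from 134 to 65.5 CPM (0.488, 0.453 to 0.526), and it was higher in podocyte-like, proximal tubule-like, muscle-like, neuronal-like and Schwann or glial-like cells, by 2.18 to 3.95 times. It was the 1 of the 10 genes at least 1.5-fold lower there, where 11.4% of 18109 genes were, and ITGA6 (3.08) and ITGB8 (1.75) were at least 1.5-fold higher, where 12.7% were. ITGA5 was lower there beyond counting error (0.839, 0.740 to 0.951), and the intervals of ITGA1 (1.02, 0.936 to 1.11) and ITGAV (0.971, 0.882 to 1.07) held 1. ITGB8 was higher in 7 of the 9 classes beyond counting error and lower in none, and ITGB1 stayed within 0.847 and 1.33 times in all 9. In neuronal-like cells 8 of the 10 genes, all but ITGA2 and ITGB1, were at least 1.5-fold higher (17.4% of genes) and none lower (12.6%), and in muscle-like cells 6 were higher (21.9%) and ITGA6 lower (9.39%). In neural progenitor-like cells 4 were higher (12.1%) and ITGA2 lower (13%), and in proximal tubule-like cells 3 were higher (14.2%) and ITGA2 lower (8.08%). No gene was lower by 1.5-fold in Schwann or glial-like (6.94%), coelomic epithelium-like (12.6%) or proliferating-like cells (8.6%), where 3 (12.5%), 2 (12.9%) and 2 (10.6%) were higher. In proximal tubule-like cells ITGB8 went from 27.6 to 43.1 CPM (1.56, 1.39 to 1.75) and ITGA2 from 23.2 to 15.1 CPM (0.650, 0.551 to 0.765).

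**Figure D5:**
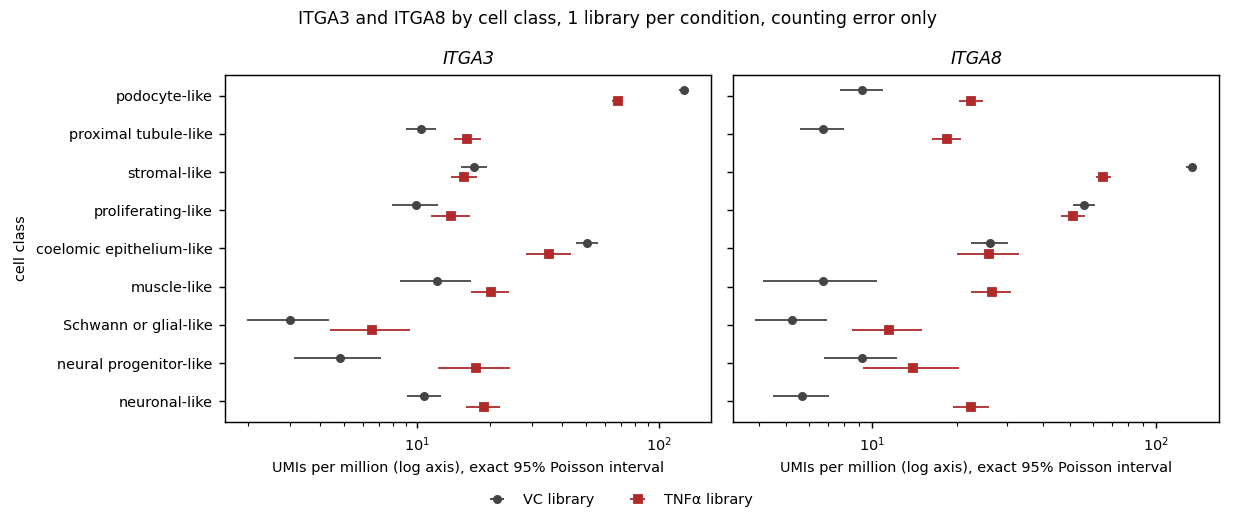
ITGA3 and ITGA8 in CPM of UMIs (log axis) by named cell class in the VC library (circles) and the TNFα library (squares), with exact 95% Poisson intervals. ITGA3 is lower with TNFα in podocyte-like cells (ratio 0.530) and ITGA8 in stromal-like cells (0.488), and both are higher with TNFα in several classes where the VC level is low.

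The marker genes of every class moved alike between these libraries. Summed over its list, each of the 9 classes had less of its own markers in the TNFα library, by ratios of 0.513 (podocyte-like) to 0.691 (coelomic epithelium-like), and 8 of the 9 lists were lower by at least 1.5 times. In podocyte-like cells all 10 podocyte markers were lower, with ratios of 0.364 to 0.596 and a median of 0.553, so that ITGA3 at 0.530 lay within the range of the markers. In stromal-like cells all 8 stromal markers were lower (0.193 to 0.770), a range that also holds ITGA8 at 0.488. Outside its own class, the podocyte list was 2.09 times higher in the TNFα library (323 to 675 CPM), the muscle list 2.38, the proximal tubule list 1.63, the stromal list 1.57 and the Schwann or glial list 1.32 times higher. The neuronal, coelomic epithelium and neural progenitor lists were at 1.05 to 1.11 outside their classes, and the proliferating list was lower there, at 0.708. Depth per cell, free RNA and the purity of the clusters differ with the library, and their part in these ratios was not tested; with 1 library per condition, library and treatment cannot be told apart.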

How the data were processed

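Isolated kidney organoid spheroids (13 libraries) were measured by bulk RNA-seq and dissociated whole wells by droplet single-cell RNA-seq. Per the labels and methods, the authors aligned bulk reads to GRCh38 with STAR 2.7.8a and counted genes with HTSeq (0.11 in the submitters' processing notes, where the methods name another release). They deposited log2 values, which equal log2(CPM + 1) of whole reads: recovered reads were whole for 100% of values (within 0.01 reads). For single cells the deposited values are UMI counts from Cell Ranger (2.1.1 in the processing notes); the build used for these is not given unambiguously in the sources used here.

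Groups followed the labels. limma 3.58.1 with a mean trend was fitted to the log2 values, without a filter: day for set 2, treatment plus time for TNFα. No test was made within set 1. RPKM used exon unions of GENCODE. Cells with over 500 genes were scaled with scanpy 1.11.5 and aligned by a rewritten version of the Harmony method, not the published package. They were clustered with leidenalg 0.10.2 (Leiden, resolution 0.25), leaving out 26 integrin genes. A cluster was named when at least 3 markers of a list had 20 CPM and a log2 fold of 1 over other cells. Very small clusters stayed unnamed, and clusters of low depth needed a marker among their leading genes. The early nephron name was barred where myogenic factors led. The automatic Scrublet threshold marked 2 and 1 cells and so did not work; doublets were kept, and the 1134 and 4291 cells of highest score were left out in an alternative chosen after seeing the data. Ratios in the single-cell background counts needed 10 UMIs over both libraries. All integrin genes are named; of the other lists, the 3 largest called differences and LAMA5, CD151, NPNT, FN1, TGFB1 and LTBP1 are named, except that a ligand gene is not reported here. The members and lists were chosen with earlier results of these data known. Scripts were tested on simulated data. Alternatives were edgeR 4.0.16 and DESeq2 1.42.0 on recovered reads, other scalings, filters, leaving out libraries, and other cell settings.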

Additional observations from a re-analysis of the deposited data

Results flagged for a closer look

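Between cell classes, 7 of the 10 integrin genes had TNFα to VC ratios whose counting intervals lay below 1 in at least 1 named class and above 1 in another. The share of all genes that meet this rule was not counted, so the count of 7 has no background to be read against. These differences between classes were not tested, since each condition has 1 library. ITGA3 had its lowest ratio in podocyte-like cells, at 0.530, and its highest in neural progenitor-like cells, at 3.64. ITGA8 had its lowest in stromal-like cells, at 0.488, and its highest in neuronal-like cells, at 3.95. ITGB5 went from 0.557 in podocyte-like to 3.13 in neuronal-like cells. ITGA6 went from 0.623 in muscle-like to 3.08 in stromal-like cells. ITGA2 went from 0.251 in neural progenitor-like to 2.20 in podocyte-like cells, where it had 0.922 and 2.03 CPM. ITGA5 went from 0.839 in stromal-like to 3.64 in coelomic epithelium-like cells. ITGB1 stayed closest to 1, from 0.847 in stromal-like to 1.33 in muscle-like cells. The lowest ratio fell in the class of highest VC level for ITGA3, ITGA5, ITGA8 and ITGB5. For ITGA2, ITGA6 and ITGB1 it fell in another class. The VC level both ranks the classes and divides the ratio. A low ratio in the class of highest VC level is thus favoured in advance, by an amount that was not tested. Clusters were named by markers on the UMIs of both libraries together, so this does not apply in the same way to class markers.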

How the results depend on the processing

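For D21 against D29 in set 2, the same 5 genes were called under edgeR, DESeq2, median centring, the filter on low values, the scale without the added 1, no variance trend and the replicate block. From D21 to D25, the count of 3 became 5 with DESeq2, 5 with edgeR and 5 with the replicate block, and 0 to 4 when 1 library was left out. From D25 to D29, the count of 1 became 2 with DESeq2, 0 with no trend (limma, 4 genes at an unadjusted p under 0.05; edgeR called 1) and 0 to 3 when 1 library was left out; where a day kept 1 library, it was assumed to vary like the others. With TNFα, 8 genes stayed called in every alternative but no trend (7) and no time term (5). ITGA3 between D21 and D29 ranged from -0.92 to -0.19 when 1 library was left out, and between D25 and D29 from -0.97 to -0.24, called in each case only without Org1 of D29. Without alignment of the libraries, ITGA3 in podocyte-like cells of the VC library was 121 CPM and its ratio 0.712. Over all genes, the D21 to D25 count (1486) was 241 to 2231 with 1 library left out, and the D21 to D29 count (5081) 2358 to 5417. The D25 to D29 count (574) was 1336 with edgeR, 1288 with DESeq2, 1118 with the replicate block, 1122 with the filter, 1106 with centring, 209 with no trend and 0 to 2014 with 1 library left out (0 without either D25 library in limma, with 3383 and 3715 genes at an unadjusted p under 0.05). The TNFα count (4061) was 2184 with DESeq2 and 1310 with no time term. The cause of these shifts was not tested. No called value changed sign. Of 198 values with 1 library left out, 169 kept their side of the threshold or stayed near the main value, as did 381 of 408 under other alternatives.

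Same-numbered libraries of set 2 deviated together weakly, with positive r (0.143, 0.0753 and 0.270 between days). The main fits do not treat Org1 and Org2 as pairs. Over all genes, the replicate block raised the count from 1486 to 2091 for D21 to D25. For D21 to D29 it went from 5081 to 6056, and for D25 to D29 from 574 to 1118. Of the integrin genes, the block added ITGA2 and ITGA5 from D21 to D25 and changed no other call. The planned removal of cells called by Scrublet was not run, as its threshold failed. A level of 3 UMIs corresponds to 0.0298 CPM in the VC library and 0.0329 CPM in the TNFα library, over all cells.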
